A study of Mus musculus with 8 samples.

Results

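The genes described here are 41 enzymes that remove methyl groups from histone lysines or that add them at the marks of active chromatin and at histone H4 lysine 20. They were taken by gene symbol from a table of 31723 genes, and all 41 had a row. There were 20 demethylases and related JmjC proteins and 21 methyltransferases. The RNA came from muscle stem cells, which express Pax7 and rebuild fibres after injury. They had been purified by cell sorting out of hindlimb muscle of C57BL/6 wild-type mice. The young group held 4 libraries from mice aged 3 months and the old group 4 libraries from mice aged 20 months, all from freshly isolated cells with no other treatment. The labels do not say whether a library came from 1 animal or a pool, so p-values measure the spread between these libraries, which may in part be technical.

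Methylated lysines on histones mark the state of chromatin. Methylation of H3K4 and H3K36 accompanies active promoters, enhancers and gene bodies, H3K79 methylation accompanies transcription, and H4K20 methylation takes part in chromatin compaction and DNA repair. Methyltransferases take the methyl group from S-adenosylmethionine, the donor whose loss with age is the subject of the series. Demethylases of the LSD1 type use flavin, while those with a JmjC domain use iron, oxygen and 2-oxoglutarate. In mice, Kmt5b is known to help keep muscle stem cells quiescent, and Kmt2a is known to support Pax7 and Myf5 expression in them.

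The deposited values are normalized counts, reads assigned to a gene divided by a size factor of the library. They correspond to between 19.04 and 34.68 M reads assigned to genes per library. In bulk cells, fewer cells of a type and less RNA per cell cannot be told apart. Pax7, Myf5, Myod1 and other markers of muscle stem cells were measured at either age, with a summed level of 195876 to 247114 normalized counts for 11 markers in young libraries and 193413 to 228317 in old ones. Of the 11, 2 fell by limma, edgeR and DESeq2 alike, the integrin gene Itga7 (log2 fold change -0.68) and the calcitonin receptor gene Calcr (-0.47). DESeq2 also called Des lower (-0.40 in limma), and no marker was called higher by any of these tools. At an unadjusted p under 0.05 in limma, 3 were lower and 2 higher, the latter being Chodl (0.32) and Vcam1 (0.34). Most markers of connective tissue cells were higher in old libraries. The summed level of 14 markers of fibro-adipogenic progenitors, the connective tissue progenitors of muscle, was 104083 to 171230 in young and 132609 to 304546 in old, 3 of the 14 rose, and none was at 0. These ranges overlap. The log2 fold change was above 0 for 11 of the 14 and below 0 for 3. At an unadjusted p under 0.05 in limma, 8 were higher and 1 lower, the collagen gene Col3a1 (-0.59). The summed level of 6 tenocyte markers was 3189 to 8357 in young and 11718 to 107452 in old, and 5 of the 6 rose, also with none at 0. The summed level of 9 endothelial markers was 65436 in young library 3 and 54272 in old library 3, against 17889 to 33738 in the other 6 libraries. Old library 4 was the highest for 8 muscle fibre markers (24337, against 5805 to 10327 in the other libraries) and for 10 macrophage markers (2172, against 518 to 1182).

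Per kilobase of exon, which allows levels to be compared between genes, Jmjd1c was the most abundant of the 41 at both ages. This KDM3 family protein had 1397 ± 97.5 normalized counts per kb in young and 1090.4 ± 80.7 in old (SD, n = 4 each). Kdm1a, which encodes the flavin-dependent demethylase LSD1, came next with 997 ± 58.3 and 801 ± 104. The H3K27 demethylase gene Kdm6b (757 ± 87.4 and 799 ± 95.2) and Dot1l, which encodes the H3K79 methyltransferase (719.9 ± 179.5 and 659 ± 101), held ranks 3 and 4 at both ages, with spreads that overlap each other.

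At the low end, the H3K4 methyltransferase Setd1b had 16.8 ± 3.37 normalized counts per kb in young and 10.6 ± 2.09 in old. Kdm4d, a germline-biased relative of the KDM4 demethylases, was listed at 2.40, 16.1, 2.12 and 5.78 normalized counts in young libraries 1 to 4 and at 9.38, 5.72, 0 and 3.13 in old ones. Its mean lay under the minimum of 10 normalized counts, so it was not tested, and the other 40 were. Exon lengths are unions over annotated isoforms, so that genes with long rare isoforms are placed too low.

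**Figure D1:**
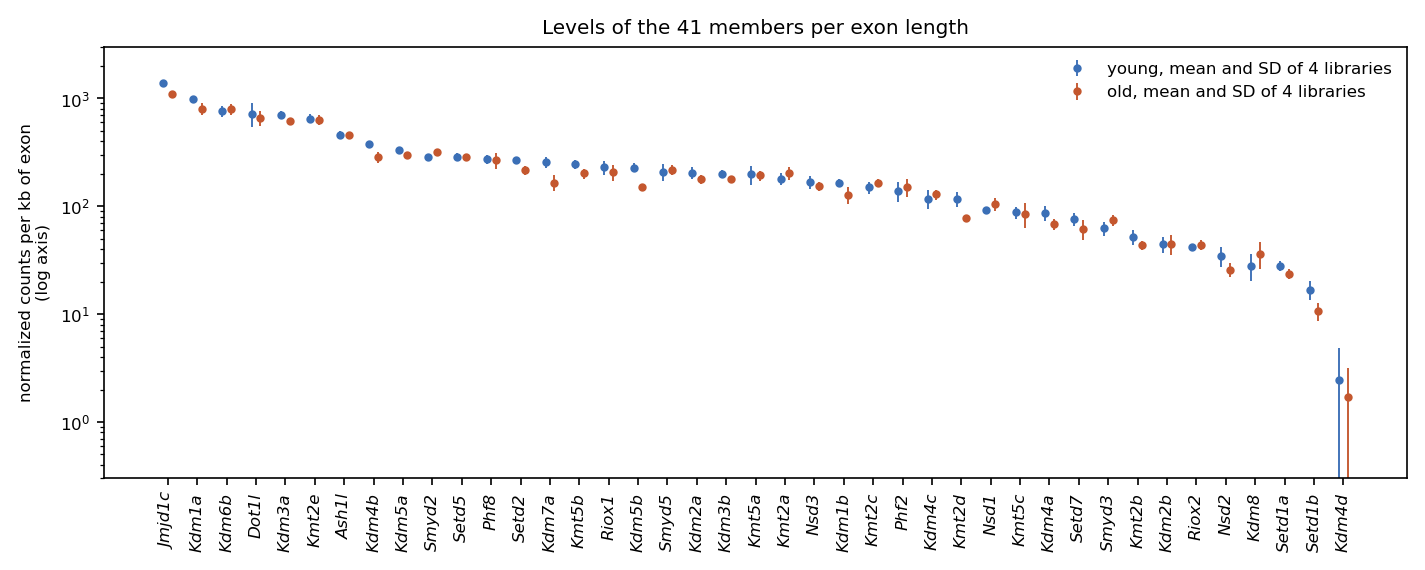
Levels of all 41 genes as normalized counts per kilobase of exon on a log axis, in order of the young mean; points are means and bars SDs of 4 libraries per age, and the bars of Kdm4d run below the axis. Jmjd1c and Kdm1a lead at both ages, and Setd1b and Kdm4d are the lowest.

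With age, 5 of the 40 tested genes fell and none rose. The 5 were the demethylase genes Kdm5b, Kdm7a, Kdm4b and Jmjd1c and the methyltransferase gene Kmt2d, and their old levels were between 0.640 (Kdm7a) and 0.781 (Jmjd1c) of the young ones. The test was limma on log2(normalized count + 1), old against young, with Benjamini-Hochberg adjustment over 14822 genes and a threshold of 0.05. The 5 lower genes are 12.5% of the members, beside 1.88% of all tested genes called lower, and the 0 higher genes stand beside 3.34% called higher. At an unadjusted p under 0.05, 13 members were lower (32.5%, beside 8.06% of all genes) and 0 higher (beside 12.7%). On the reads recovered from the table, edgeR called the same 5 genes lower and none higher, beside 2.01% and 2.76% of all genes. DESeq2 called 7 lower, the same 5 with Setd1b and Setd2, and none higher, beside 4.06% and 5.18%. The median log2 fold change, old over young, was -0.13 over the members and 0.045 over all tested genes, with 29 members below 0 (72.5%, beside 43.5%) and 11 above (beside 56.5%). Of 11 tested family genes outside the member list, 4 were below 0 and 7 above, with a median of 0.096, and 1 was called lower. The members were chosen with earlier results of these data known, so these shares need not hold for the enzyme families as a whole.

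The count of 5 rests on most of the libraries. Leaving out young library 1 gave 2, and so did young library 2. Leaving out young library 4 or old library 1 gave 1, old library 2 gave 3 and old library 4 gave 2. Kdm5b alone of the 5 passed without each of the 8 libraries in turn.

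Of the 2 KDM5 genes, which encode H3K4 demethylases, 1 fell. Kdm5b, which removes methyl groups from trimethylated H3K4, had 1956, 2358, 1923 and 2167 normalized counts in young libraries 1 to 4 and 1477, 1392, 1436 and 1231 in old ones. The ages did not overlap, and the highest old library lay well below the lowest young one. The log2 fold change was -0.60 ± 0.098 (SE, adjusted p = 0.00875, limma). Kdm5a, its closest relative in the set, had 3555, 3677, 3499 and 3809 in young and 3305, 3343, 3256 and 3232 in old. These also did not overlap, but the gap was small, and Kdm5a did not pass (-0.15 ± 0.070, 95% interval -0.30 to 0.0088, adjusted p = 0.271).

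Kdm7a, a demethylase of H3K9 and H3K27 that binds trimethylated H3K4, had 2393, 2428, 2172 and 2840 normalized counts in young and 1639, 1804, 1705 and 1191 in old. Old library 4, which stood apart in muscle fibre and macrophage markers, was the lowest and young library 4 the highest, and the ages did not overlap (log2 fold change -0.64 ± 0.14, adjusted p = 0.0267, limma). Without old library 4 the log2 fold change was -0.51 (adjusted p = 0.0447). Its relatives with a PHD finger and a JmjC domain stayed closer to 0. The X-linked Phf8 was at -0.052 ± 0.13 (95% interval -0.34 to 0.23) and Phf2 at 0.14 ± 0.18 (-0.26 to 0.53).

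Kdm4b and Jmjd1c passed by a narrow margin. Kdm4b, which acts on trimethylated H3K9 and is a known target of hypoxia-inducible factor, had 1724, 1768, 1627 and 1828 normalized counts in young and 1271, 1536, 1236 and 1211 in old (-0.41 ± 0.097, adjusted p = 0.0404, limma). The ages were separate, old library 2 lying nearest to the young range. Jmjd1c had 13774, 11972, 11906 and 12331 in young and 9047, 9300, 10635 and 10043 in old (-0.36 ± 0.086, adjusted p = 0.0424, limma). Here too all old libraries lay below all young ones.

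None of the other 4 tested genes of the KDM3 and KDM4 families passed limma, edgeR or DESeq2, and 2 were lower at an unadjusted p under 0.05. Kdm3a, a hypoxia-induced enzyme acting on mono- and dimethylated H3K9, had separate ages, 3231 to 3756 in young and 2814 to 3202 in old, and did not pass (-0.21 ± 0.084, adjusted p = 0.191, limma). Kdm3b was at -0.17 ± 0.095. Kdm4a (-0.33 ± 0.15, adjusted p = 0.224) and Kdm4c (0.14 ± 0.15, adjusted p = 0.660) had values of opposite sign and overlapping libraries.

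Of the flavin-dependent pair, Kdm1a had 2955, 2953, 3001 and 3324 normalized counts in young and 2594, 2018, 2762 and 2461 in old. All old libraries lay below all young ones, but the difference did not pass (-0.32 ± 0.11, 95% interval -0.56 to -0.089, adjusted p = 0.109, limma). Kdm1b, which acts on H3K4 in gene bodies, had 728 to 897 in young and 563 to 809.8 in old, with old library 2 inside the young range (-0.37 ± 0.13, adjusted p = 0.148).

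Of the KDM2 pair, demethylases of H3K36, Kdm2a was at -0.18 ± 0.12 and Kdm2b at -0.016 ± 0.19. Kdm6b, which removes H3K27 methylation and is also an early response gene, had 5137, 5328, 4191 and 5488 in young and 5995, 4595, 5003 and 5669 in old. Its libraries overlapped (0.078 ± 0.11, 95% interval -0.18 to 0.33). The remaining JmjC proteins Riox1 and Riox2, ribosomal oxygenases, were at -0.16 ± 0.16 and 0.077 ± 0.15. Kdm8, the least abundant tested demethylase with means of 66.9 and 86.5 normalized counts, was at 0.38 ± 0.29, with an interval of -0.28 to 1.03 that leaves its direction undetermined. Riox1 shares 31.7% of its exon length with a gene on the opposite strand and Riox2 25.6%, Kdm2b shares 14.1%, Kmt2e 13.3% and Kdm1b 9.99%, and the strandedness of the libraries is not given in the sources used here, so their counts may hold reads of these neighbours.

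**Figure D2:**
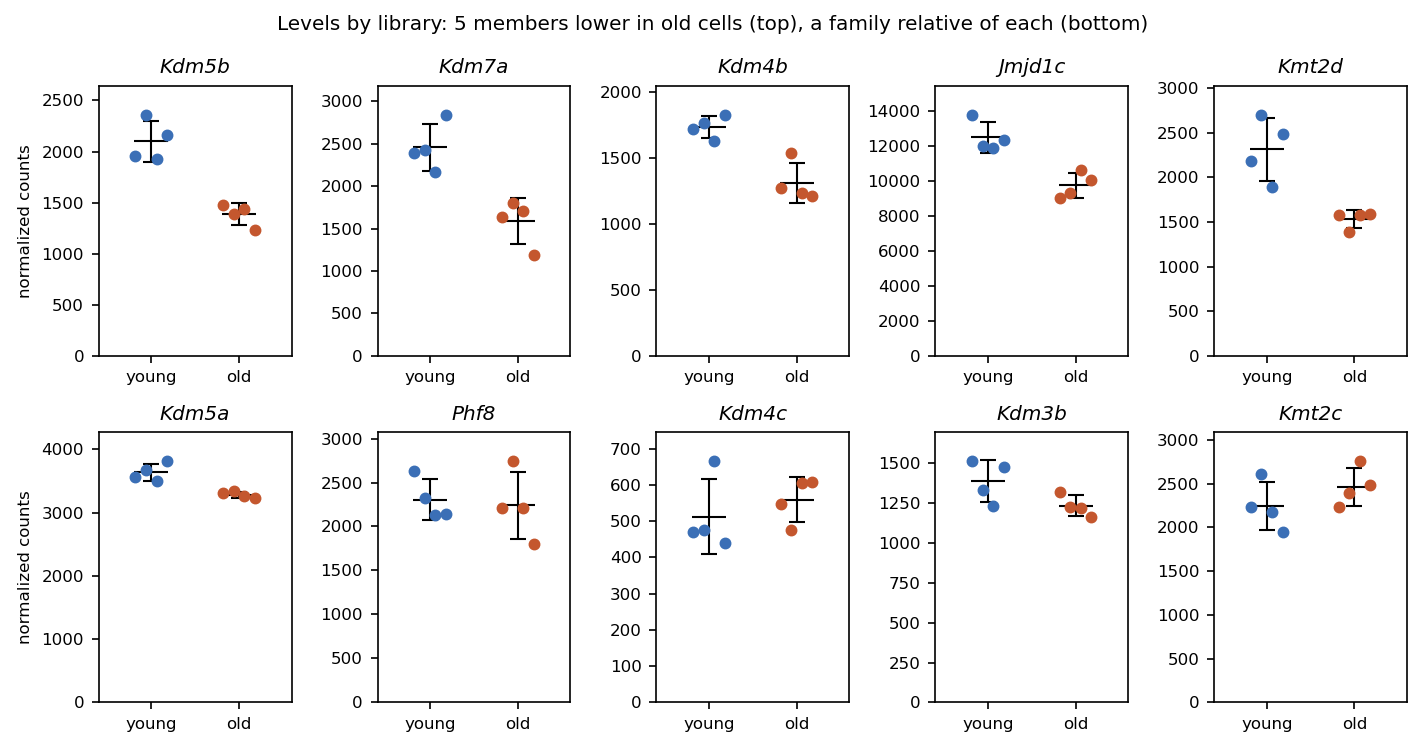
Normalized counts per library (points) with mean and SD (bars) at each age, for the 5 genes that fell (top) and a family relative of each (bottom), each panel starting at 0. In the top row all old libraries lie below all young ones, and in the bottom row only those of Kdm5a do. Of relatives not shown, Kdm3a was also lower without overlap. Kdm4a (log2 fold change -0.33) and Phf2 (0.14) overlapped.

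RefSeq start windows (GRCm38.p6) are shown for 3 of the lower demethylase genes, since these moved in the same direction and their windows can be compared letter by letter. Each line gives the 250 bases before a listed start in the direction of the gene, which need not be its outermost start. Capitals mark any match to CACGTG (E-box), ACGTG (core of the hypoxia response element), TGACGT (core of the cAMP response element), CCAAT (the box of that name), GGGCGG (the box bound by Sp factors) or the TATA box TATAAA, searched on both strands. The E-box contains the hypoxia core, and the hypoxia and cAMP cores can overlap.
Kdm5b, chr1:134559928-134560177, plus strand: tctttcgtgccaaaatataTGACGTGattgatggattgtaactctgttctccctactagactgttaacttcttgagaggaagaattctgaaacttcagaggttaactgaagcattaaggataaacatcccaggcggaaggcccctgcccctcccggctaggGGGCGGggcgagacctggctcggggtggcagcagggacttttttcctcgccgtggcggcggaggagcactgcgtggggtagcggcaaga
Kdm7a, chr6:39206774-39207023, minus strand: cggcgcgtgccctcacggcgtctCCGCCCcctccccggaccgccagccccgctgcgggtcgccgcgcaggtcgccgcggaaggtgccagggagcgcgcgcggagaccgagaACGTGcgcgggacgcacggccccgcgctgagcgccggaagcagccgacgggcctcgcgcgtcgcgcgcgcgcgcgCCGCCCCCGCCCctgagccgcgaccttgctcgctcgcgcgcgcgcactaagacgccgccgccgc
Jmjd1c, chr10:67185500-67185749, plus strand, the second of its 2 windows: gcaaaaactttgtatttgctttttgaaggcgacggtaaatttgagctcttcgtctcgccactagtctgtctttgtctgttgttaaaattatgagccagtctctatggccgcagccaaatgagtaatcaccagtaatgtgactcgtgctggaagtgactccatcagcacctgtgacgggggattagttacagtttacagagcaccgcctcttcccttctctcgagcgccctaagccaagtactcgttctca

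Both Jmjd1c windows lie inside the gene, whose RefSeq span begins at base 67096351 of its chromosome, so neither is at its outermost start. Those of Kdm5b and Kdm7a adjoin the start of the span. The first Jmjd1c window is not printed, since the bases after its start were not found in a reference transcript. It was 79.6% G and C with 3 matches to GGGCGG, and only if this window is counted did all 3 genes have the box. The Kdm7a window was 82.0% G and C, with 3 matches to GGGCGG and 1 to ACGTG, the Kdm5b window was 54.4% G and C, with 1 match to GGGCGG and an overlapping TGACGT and ACGTG beginning 231 and 229 bases before the start, and that of Jmjd1c shown was 47.2% G and C with no match. ACGTG lay in 8 of 38 windows of 28 members with an entry (21.1%), beside 21.1% of 14253 windows of tested genes. GGGCGG lay in 25 (65.8%, beside 55.8%), CCAAT in 13 (34.2%, beside 34.7%), TGACGT in 4 (10.5%, beside 9.33%), CACGTG in 1 (2.63%, beside 8.03%) and TATAAA in 1 (2.63%, beside 6.92%).

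Of 8 H3K4 methyltransferases 1 fell and none rose. Kmt2d, which places monomethyl marks at enhancers, had 2188, 2700, 1889 and 2486 normalized counts in young and 1574, 1387, 1579 and 1596 in old. The ages did not overlap, and the old libraries varied little (log2 fold change -0.58 ± 0.12, adjusted p = 0.0208, limma). Its partner in enhancer methylation, Kmt2c, had 2235, 2613, 2178 and 1946 in young and 2231, 2388, 2754 and 2481 in old. The libraries of Kmt2c overlapped (0.14 ± 0.11, 95% interval -0.098 to 0.38, adjusted p = 0.513).

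Setd1b, which places trimethyl marks at promoters, had 142, 186, 114 and 155 normalized counts in young and 87.3, 79.3, 121 and 89.1 in old. Old library 3 lay inside the young range, and Setd1b did not pass (-0.65 ± 0.21, adjusted p = 0.111, limma). DESeq2 called it lower (adjusted p = 0.0432). Its relative Setd1a was at -0.24 ± 0.16, and 53.3% of its exon length is shared with another gene model on the same strand.

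Kmt2a and Kmt2b, which act at developmental genes and promoters, were at 0.17 ± 0.12 and -0.24 ± 0.14. Setd7, a monomethyltransferase known in mice to act with MyoD in myoblasts, was at -0.31 ± 0.16 (adjusted p = 0.322, limma). Kmt2e, which has a SET domain without known methyltransferase activity on H3K4, was at -0.049 ± 0.10.

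None of the 6 H3K36 genes passed limma or edgeR, 2 were lower at an unadjusted p under 0.05, and DESeq2 called Setd2 lower (adjusted p = 0.0274). Setd2 encodes the enzyme that trimethylates H3K36 along transcribed genes. It had 2244, 2315, 2152 and 2268 normalized counts in young and 1914, 1899, 1888 and 1547 in old. All old libraries lay below all young ones, old library 4 being the lowest (-0.31 ± 0.091, 95% interval -0.52 to -0.11, adjusted p = 0.0774, limma). It was -0.24 without that library. Nsd2, a dimethyltransferase of H3K36, was at -0.40 ± 0.17 (adjusted p = 0.195), with overlapping libraries. Its relatives Nsd1 (0.15 ± 0.11) and Nsd3 (-0.12 ± 0.11), the H3K36 methyltransferase gene Ash1l (-0.013 ± 0.082) and Setd5 (-0.0087 ± 0.091) were near 0.

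Dot1l varied more within an age than between ages, with 5927, 5910, 3472 and 4296 normalized counts in young and 4062, 5439, 3923 and 4526 in old (-0.10 ± 0.18, adjusted p = 0.801, limma). Of the H4K20 enzymes, none of 3 passed limma, edgeR or DESeq2, and 1 was lower at an unadjusted p under 0.05. That was Kmt5b, which makes the di- and trimethylated forms, with 2334, 1952, 2445 and 2190 in young and 1682, 2107, 1729 and 1835 in old. Old library 2 lay inside the young range (-0.28 ± 0.10, adjusted p = 0.155, limma). Kmt5c, which makes the same marks, was at -0.067 ± 0.19 and Kmt5a, the monomethyltransferase, at -0.016 ± 0.15.

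The 3 SMYD genes, whose products methylate histones and other proteins, were all above 0, Smyd3 at 0.25 ± 0.14, Smyd2 at 0.14 ± 0.10 and Smyd5 at 0.088 ± 0.15. None passed limma, edgeR or DESeq2, and 0 had an unadjusted p under 0.05. Smyd2 shares 39.2% of its exon length with a gene on the opposite strand.

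**Figure D3:**
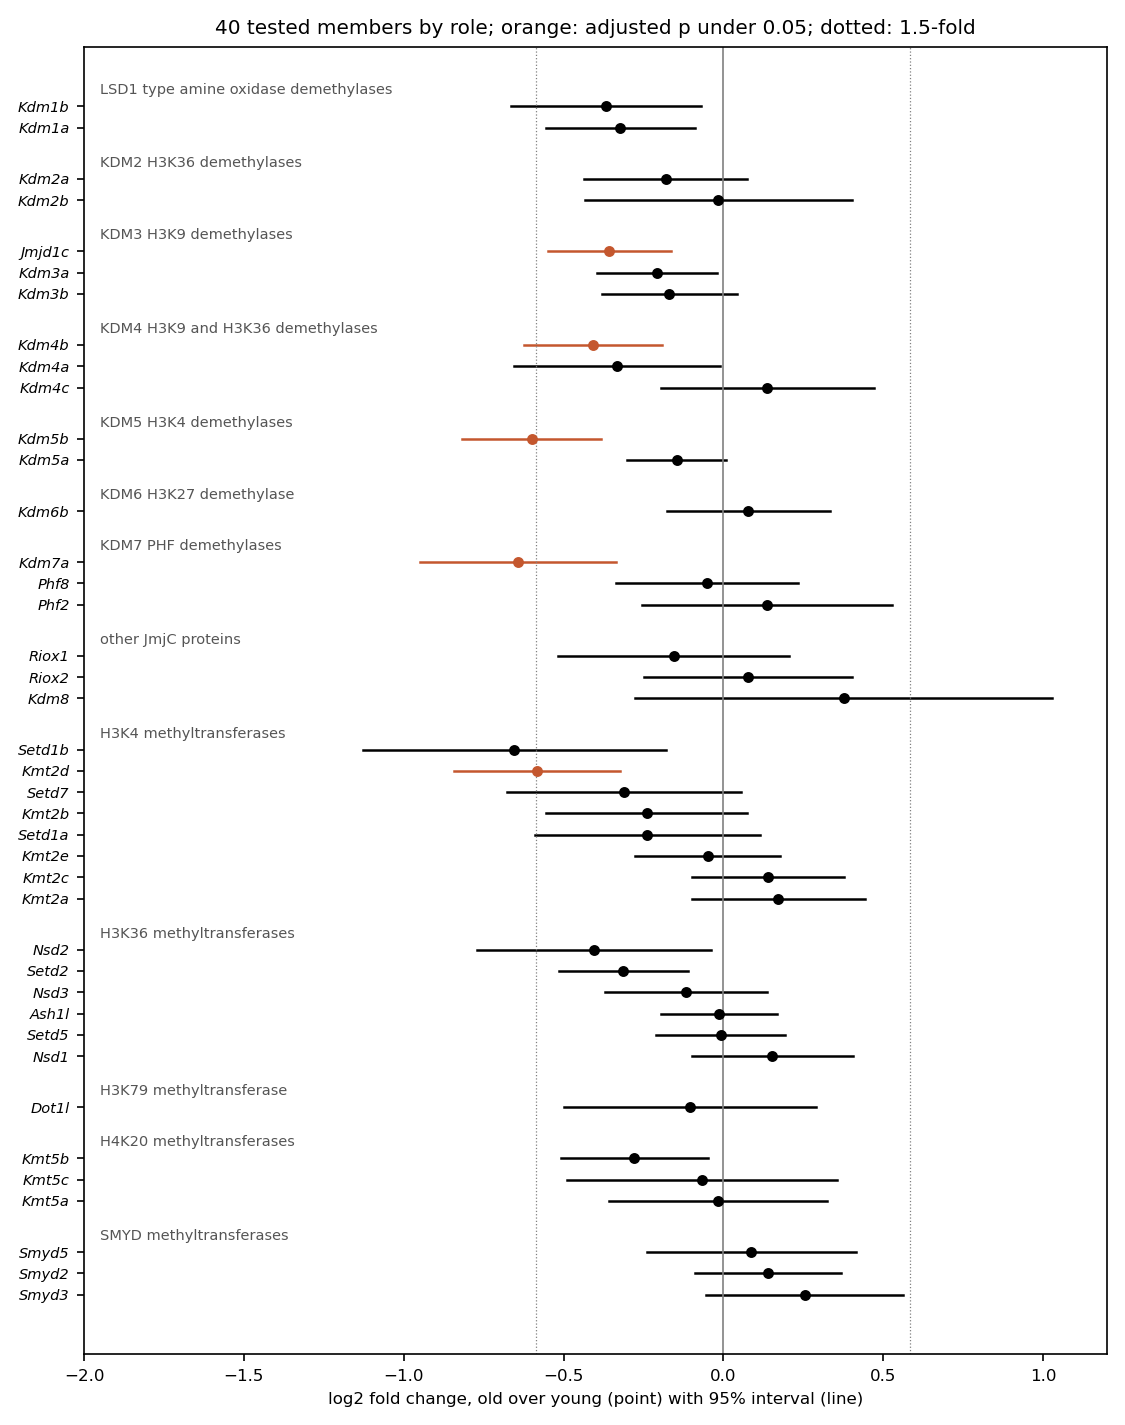
Log2 fold change, old over young (points), with 95% intervals from limma (lines) for the 40 tested genes, grouped by role; orange marks adjusted p under 0.05 and dotted lines mark 1.5-fold either way. The 5 genes in orange lie between -0.64 and -0.36, and no interval lies wholly above 0.

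For most of the 40 genes the data bound the change closely. The 95% interval lay within 1.5-fold either way for 29 of them (72.5%, beside 45.1% of all tested genes). The libraries of the 2 ages did not overlap for 9 members, all lower in old (22.5%, beside 5.46% of all tested genes that were lower without overlap), and none was higher without overlap (beside 7.99%). These were the 5 called genes with Kdm1a, Kdm3a, Kdm5a and Setd2. By role, 7 of 19 demethylases and JmjC proteins and 2 of 21 methyltransferases were lower without overlap, and the median log2 fold changes were -0.17 and -0.067. Members varied little within an age, with a median coefficient of variation of 11.8% in young and 11.3% in old, beside 16.4% and 15.8% over all tested genes. Young library 3 was the lowest young library for 22 of the 40 genes.

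Ratios of relatives within a library do not depend on how libraries are scaled. Of 22 pairs from the same family, 6 had ratios that did not overlap between the ages, each with p = 0.0286 by the exact two-sided permutation test over 70 arrangements, the smallest p that 4 against 4 libraries can give. None passed after adjustment over the 22 pairs (adjusted p = 0.105). Separate pairs with Kdm5b, Kdm7a or Kmt2d hold a gene called lower in the same libraries, so they are not independent of those calls. The share of separate pairs among all genes was not measured.

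The log2 ratio of Kmt2c to Kmt2d was 0.031, -0.047, 0.21 and -0.35 in young libraries and 0.50, 0.78, 0.80 and 0.64 in old ones. Per kilobase, Kmt2d made up 43.7% ± 3.98 of the Kmt2c and Kmt2d level in young and 32.0% ± 2.12 in old (SD, n = 4 each). The log2 ratio of Kdm5a to Kdm5b was 0.79 ± 0.11 in young and 1.25 ± 0.10 in old, and Kdm5b made up 40.7% ± 1.77 and 33.4% ± 1.603 of the pair per kilobase. The log2 ratio of Kdm7a to Phf8 went from 0.092 ± 0.23 to -0.50 ± 0.12, and that of Kdm7a to Phf2 from 1.71 ± 0.14 to 0.93 ± 0.46. The other separate pairs were Kmt2a to Kmt2b (2.76 ± 0.14 and 3.17 ± 0.16) and Nsd1 to Nsd2 (1.26 ± 0.35 and 1.82 ± 0.16), of which no gene passed on its own.

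**Figure D4:**
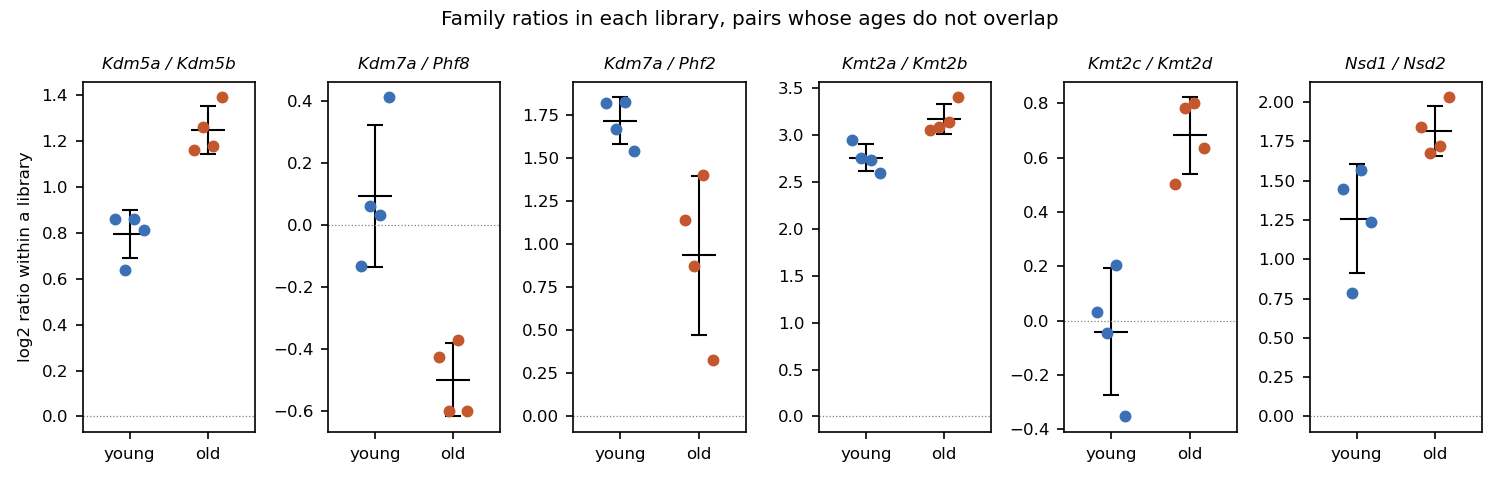
Log2 ratio of the normalized counts of 2 relatives within each library (points), with mean and SD (bars) at each age, for the 6 of 22 pairs whose ages do not overlap. The ratio of Kmt2c to Kmt2d lies at or below 0.21 in all young libraries and at or above 0.50 in all old ones.

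With the mean log2 level of the fibro-adipogenic markers of each library as a covariate in limma, 0 of the 40 genes passed, beside 0.0742% of all genes called lower and 0.155% called higher. In all, 34 genes passed with it and 773 without it. The log2 fold changes of the 5 were then -0.61 for Kdm5b, -0.49 for Kdm7a, -0.47 for Kdm4b, -0.31 for Jmjd1c and -0.69 for Kmt2d, with adjusted p between 0.204 and 0.468, and 6 members were lower at an unadjusted p under 0.05. The sixth was Dot1l, at -0.53 with the covariate against -0.10 without it. In old library 3 the summed fibro-adipogenic level lay inside the young range, while the called markers Dcn, Lum and Smoc2 and the tenocyte sum lay above all young libraries. Of the 14 fibro-adipogenic markers 11 had a log2 fold change above 0 and 3 below, so the covariate itself varied with age. With 8 libraries this fit cannot separate the covariate from age, and no conclusion is drawn from the loss of calls. The part of these cells in the differences was not tested further.

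Partners of these enzymes showed few changes. COMPASS is the name of the complexes in which the KMT2 and SETD1 enzymes work. Of 17 tested genes for its subunits and other partners, none passed limma or edgeR. DESeq2 called Wdr82 lower, and 2 of the 17 were lower and 1 higher at an unadjusted p under 0.05 in limma. Wdr82, which recruits SETD1 enzymes to RNA polymerase, was at -0.44 ± 0.12 (adjusted p = 0.0624, limma). Of 11 partners of LSD1 in the CoREST complex, none passed limma, edgeR or DESeq2, with 1 lower and 1 higher at an unadjusted p under 0.05. These were Rcor1 (-0.24 ± 0.090) and Rcor3 (0.36 ± 0.11), scaffolds of that complex. Of 9 partners of Dot1l, Mllt3, a reader of acylated lysine that brings Dot1l to chromatin, fell from 643 ± 39.8 to 465 ± 44.5 (-0.47 ± 0.11, adjusted p = 0.0370, limma). Its call was lost when any of the 8 libraries was left out.

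None of 21 readers of H3K4, H3K36 and H4K20 methylation passed limma, with 2 lower and 2 higher at an unadjusted p under 0.05. EdgeR called Ing2, a reader of trimethylated H3K4, lower (-0.41 ± 0.11 in limma, adjusted p = 0.0564), and DESeq2 called Ing2 and the H3K36 reader Hdgfl2 lower. Of 17 genes that supply or consume 2-oxoglutarate, none passed limma, edgeR or DESeq2. Idh1 and Idh2, the cytosolic and mitochondrial isocitrate dehydrogenases that make it, were at 0.40 ± 0.14 and -0.25 ± 0.088, with adjusted p of 0.142 and 0.144.

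Of 21 other genes for oxygenases that use 2-oxoglutarate, 3 fell and none rose, beside 1.88% and 3.34% of all genes. Hr, the JmjC protein hairless, fell from 2556 ± 699.8 to 1439 ± 234 (-0.80 ± 0.18, adjusted p = 0.0342, limma), and Hif1an, the hydroxylase that inhibits hypoxia-inducible factor, from 1331 ± 157 to 935 ± 52.9 (-0.50 ± 0.11, adjusted p = 0.0241). The other was Tet2, which oxidizes methylcytosine in DNA and fell from 5186 ± 455 to 3365 ± 135 (-0.62 ± 0.084, adjusted p = 0.00423). Without young library 1 or 4, or old library 1, 2 or 4, the count was 1. Of 15 target genes of hypoxia-inducible factor, 1 rose in limma, 0 in edgeR and 3 in DESeq2. Of the 15, 13 had a log2 fold change above 0, beside 56.5% of all genes. At an unadjusted p under 0.05, 5 were higher and 2 lower, beside 12.7% and 8.06% of all genes. The 2 lower were Vegfa, an angiogenic factor (-0.59), and Hk2, a hexokinase (-0.43). The target called by limma was Ndrg1, a stress-responsive gene (0.45 ± 0.11, adjusted p = 0.0412). The count was 0 when any library other than young library 3 or old library 4 was left out, and 3 without young library 3. Of 16 immediate early genes, which respond to cell isolation, Egr3 fell (-0.69 ± 0.12, adjusted p = 0.0131, limma) and Ier3 rose (0.52 ± 0.13, adjusted p = 0.0499). Of all genes, 1.88% were called lower and 3.34% higher. DESeq2 called Junb higher as well (0.42 in limma). At an unadjusted p under 0.05 in limma, 3 of the 16 were higher and 1 lower, beside 12.7% and 8.06% of all genes. The log2 fold change was above 0 for 10 and below 0 for 6. The number of immediate early genes called lower was 1 without each library in turn, and the call of Ier3 was lost in edgeR and without any library other than young library 3.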

How the data were processed

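The authors deposited normalized counts, a signal in which reads per gene are divided by a size factor of the library. Tools listed in the submitters' processing notes are STAR, featureCounts, DESeq2, Subread 1.5.1 and Trim Galore 0.4.2, and the notes list the builds GRCm39 and mm10 with no role for each. Per the labels' protocols, amplified cDNA went into Nextera XT library preparation. Each deposited column was divided by the value of 1 read (0.60 to 1.07 normalized counts), which returned whole reads (within 0.01) for at least 99.97% of values above 0. These reads carry no molecular identifiers.

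A gene was tested when its normalized counts averaged 10 or more across all 8 libraries (14822 of 31723 genes). The test was made with limma 3.58.1 (R 4.3.3) on log2(normalized count + 1) with an intensity trend and age as the only term, two-sided. Fold changes on this scale understate those of low genes. The pseudocount of 1, the filter, the library scaling, the variance prior, library weights, the replicate block and each library were varied, and edgeR 4.0.16 and DESeq2 1.42.0 were run on the recovered reads. All 41 members were described by role. The other named genes were those of fixed partner lists that passed, and Wdr82, Rcor1, Rcor3, Ing2, Hdgfl2, Idh1, Idh2, Vegfa, Hk2 and Junb were named after their values were seen. So were the cell type markers Des, Chodl, Vcam1 and Col3a1. The members and lists were chosen with earlier results of these data known. Exon lengths and overlaps came from GENCODE M21 (GRCm38) and start windows from RefSeq, where 28 of the 41 matched by symbol. On data simulated from these libraries, 4 against 4 over 14822 genes, limma called 15 of 67 genes changed 1.5-fold (22.4%), 34 of 67 changed 2-fold (50.7%), 53 of 66 changed 4-fold (80.3%) and 3 of 14622 unchanged genes.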

Additional observations from a re-analysis of the deposited data

Results flagged for a closer look

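Within an age, 6 of 80 groups of 4 libraries held a library whose gap to the nearest other library took up more of the range of the group than Dixon's critical value, which chance exceeds in about 1 in 20 groups. Kdm1a had 3324 normalized counts in young library 4 beside 2953 to 3001 in the other young libraries. Kdm4c had 664 in young library 3 beside 439 to 476. Kmt2d had 1387 in old library 2 beside 1574 to 1596, so that its lowest old library was farther from the young range than the rest. Setd2 had 1547 in old library 4 beside 1888 to 1914, also away from the young range. Nsd2 had 495 in old library 3 beside 369 to 375, and lay inside the young range of 449 to 709. Smyd2 had 530.3 in young library 1 beside 465 to 473.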

How the results depend on the processing

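The count of 5 lower genes was 5 with pseudocounts of 0.5 and 8, a minimum mean of 50, equal library totals, sample weights, the endothelial marker covariate, edgeR and without young and old library 3. In the last of these settings Setd1b passed and Kdm4b did not, so the 5 genes were not the same. The count was 7 with DESeq2, 3 with no filter, 3 with quantile normalization, 1 with eBayes without the trend and 0 with the fibro-adipogenic marker covariate. Without single libraries it was 1 to 5. For the drops to 3, 1 and 0 and those without single libraries the cause was not tested. With the replicate number as a replicate block it was 3, Jmjd1c and Kdm4b having adjusted p of 0.0860 and 0.0512 (limma). Libraries with the same number did not all deviate together (correlations 0.19, 0.072, 0.30 and -0.042 over genes), those of libraries 1 and 3 exceeding their correlations with any other number and those of 2 and 4 not, so that pairing was not established. The count of higher genes was 0 in all 22 settings. Kdm5b passed in 21 of 22, Kdm7a and Kmt2d in 16, Jmjd1c in 11 and Kdm4b in 10. Of the 40 genes 27 kept their sign in all settings, among them the 13 with an unadjusted p under 0.05. The number of pairs passing was 0 throughout, where the smallest p allows little else. Over all genes, 773 were called, 402 with eBayes without the trend, 34 with the fibro-adipogenic covariate, 1373 with the endothelial covariate, 1369 with DESeq2 and 361 to 840 without single libraries. In data simulated from these libraries limma recovered 22.4% of 1.5-fold changes, placed in genes drawn at random from all tested genes. The members vary less within an age than those genes, so the rate need not hold for the members. Of the 35 members not called, 28 had 95% intervals within 1.5-fold either way, and those of the other 7 reached past 1.5-fold.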

Other observations

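Relatives of the KDM5 and KDM6 demethylases on the sex chromosomes could also be measured. Kdm5c, an X-linked H3K4 demethylase, had 1698 to 2259 normalized counts in young and 1459.6 to 1785 in old, with overlapping libraries (log2 fold change -0.34 ± 0.12, adjusted p = 0.122, limma). Its Y-linked counterpart Kdm5d had 228 to 507 in young and 303 to 452 in old (0.022 ± 0.24). Kdm6a, the X-linked H3K27 demethylase, was at 0.096 and its Y-linked relative Uty at -0.25, with adjusted p of 0.751 and 0.270. Y-linked Ddx3y had at least 7288 normalized counts in each of the 8 libraries, and Xist, the RNA of the inactive X chromosome, at most 9.17.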
